A study of Mus musculus with 2 samples.

Results

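The genes described here encode the enzymes that load tRNAs with amino acids in the cytosol and the stress regulator ATF4 with genes of its program. Members were chosen by gene symbol among protein-coding transcripts of the GENCODE M21 mouse annotation (GRCm38), by a rule that uses no measured value but was set with earlier results of these data known. They comprised 37 of the 21587 genes with a protein-coding transcript in the table, and 86 of its 49490 protein-coding transcripts. Of these, 20 genes with 46 transcripts were cytosolic aminoacyl-tRNA synthetases, and 17 genes with 40 transcripts were Atf4 and genes described as ATF4 targets or partners, called ATF4 genes below.

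The cells were wild-type mouse embryonic stem cells of the line DTCM23/49 XY, pluripotent cells that were freed of feeder cells and grown on gelatin with serum and leukemia inhibitory factor. All were kept for 10 min with 200 µM 4-thiouridine (4sU), which enters RNA in place of uridine while it is being transcribed. After biotinylation, streptavidin beads held the labeled RNA, made during the pulse, while the unlabeled RNA, made earlier, remained in solution. Each pool was sequenced as 1 library, both of biological replicate 1, so there was 1 library per group from a single cell line, without an unlabeled culture as control. The library of unlabeled RNA is described as preexisting RNA but tagged as total RNA, and was taken to hold preexisting RNA. Other replicates were not analysed here. With 1 library per group no difference below has a replicate check, and no test was made.

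Exon and intron values of each transcript were given in a deposited unit on a scale 10 times that of TPM, the usual relative abundance per length. A value of 10 in this unit thus equals 1 TPM. Read depth is unknown, so counting error could not be given. Introns took 15.4% of the labeled and 6.26% of the unlabeled library. Because both libraries are relative scales, a gene was compared with the median gene: the centered log2 ratio is the log2 of its labeled over its unlabeled exon value, both summed over its coding transcripts, minus the median of that log2 (−0.40) over the 10339 genes with a mean exon value of at least 10. A centered log2 ratio of at least 1 or at most −1 is called 2-fold above or below the median gene. As RNA was pooled over the culture, fewer cells holding an RNA and less of it per cell cannot be told apart.

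Markers fixed for the cell type were in place. All 9 embryonic stem cell markers passed the filter on low values, with summed exon values of 11357 in labeled and 15437 in unlabeled RNA, and the most abundant was Tdgf1 (4574 and 6580). Of 5 fibroblast feeder markers only Thy1 passed, at 6.03 and 14.5, and the list summed to 7.26 and 16.2. Col3a1 and Postn were at 0 in both libraries. Of 6 markers of differentiated lineages only Pax6 passed, at 68.7 and 70.5, and Sox17, Gata6 and Afp were at 0 in both. The part of cells with Pax6 RNA in the values below was not tested.

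Aminoacyl-tRNA synthetases join each amino acid to its tRNA, and in animal cells several of them sit with scaffold proteins in the multisynthetase complex. When amino acids run short or the endoplasmic reticulum is stressed, kinases of the integrated stress response slow general translation, while the transcription factor ATF4 is made and turns on genes for amino acid synthesis, uptake and tRNA charging. Embryonic stem cells divide fast and are known for their dependence on threonine.

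The synthetases lay mostly below the median gene, by a modest and fairly uniform amount. All 20 passed the filter on low values, and 17 were lower than the median gene. Their median centered log2 ratio was −0.56, or 0.678 times the ratio of the median gene, and their quartiles were −0.73 and −0.26, against −0.59 and 0.70 for all genes tested. None was 2-fold above the median gene, where 18% of all genes tested were. Dars and Vars were 2-fold below it, a share of the list close to the 11.3% of all genes tested. With only the coding transcript of the highest mean exon value per gene, 14 of 20 were below the median gene and the median was −0.42. When the intron value of that transcript was also subtracted from its exon value, 10 of the 18 synthetases still measurable were below the median gene. The median was then −0.12.

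**Figure D1:**
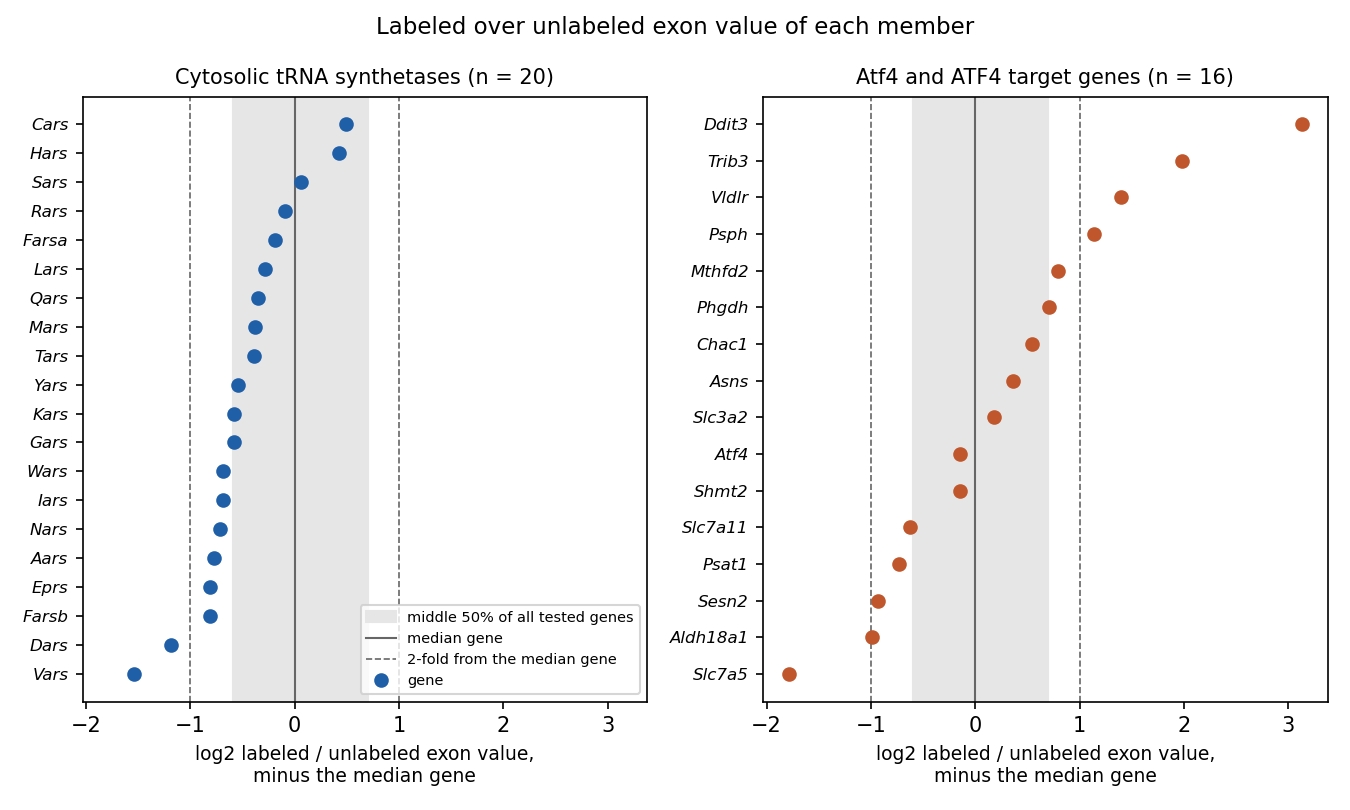
Centered log2 ratio of labeled to unlabeled exon value (horizontal axis) of the 20 synthetase genes (left) and the 16 ATF4 genes that passed the filter (right), 1 point per gene, each from 1 labeled and 1 unlabeled library. The synthetases run from −1.54 to 0.49 and the ATF4 genes from −1.78 to 3.13; grey marks the quartiles of all genes tested, and dashed lines mark 2-fold.

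Every one of the 8 synthetases of the multisynthetase complex was below the median gene, with a median of −0.48. Dars, which charges aspartate, was the lowest, with an exon value of 174 in labeled and 524 in unlabeled RNA and a centered log2 ratio of −1.19. It stayed beyond 2-fold under all alternative settings but the filter at 100 and the subtraction of introns, where it was at −0.95 and −0.79. Eprs, a fused enzyme that charges both glutamate and proline, had 378 in labeled and 876 in unlabeled RNA, a centered log2 ratio of −0.81. The isoleucine enzyme Iars followed at −0.69, with 996 and 2114. Iars shares a stretch of 1656 bases at 96.0% identity with a processed pseudogene, so reads of the pair may not have been separated. Kars, the lysine enzyme, which also serves mitochondria, had 529 in labeled and 1043 in unlabeled RNA and lay at −0.58. The remaining complex members were closer to the median gene. Mars, the methionine enzyme, was at −0.38, Qars, for glutamine, at −0.35, Lars, for leucine, at −0.28 and Rars, for arginine, at −0.09. Lars, Mars, Qars and Rars each changed sign under at least 1 alternative, so their side of the median gene was not fixed.

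The 12 synthetases outside the complex had a median of −0.56 and held both the lowest and the highest of the family. Vars, the valine enzyme, had an exon value of 79.8 in labeled and 307 in unlabeled RNA, a centered log2 ratio of −1.54. Its 5 coding transcripts ran from −2.28 to −0.76. The transcript with the most exon bases, 4137 in 30 exons, had 20.6 in labeled and 46.2 in unlabeled RNA and was the highest of them, whereas a model of 423 bases in 4 exons had 15.7 and 100.5 and was the lowest. With the longest coding transcript of each gene alone, a choice made after seeing the data, Vars was at −0.69 and no longer beyond 2-fold, and with leakage subtracted it was at −2.38. Farsb, the beta subunit of the phenylalanine enzyme, had 1336 in labeled and 3095 in unlabeled RNA, at −0.81, while its partner Farsa, the alpha subunit, had only 25.3 and 38.1 and lay at −0.19. Per length, the leading transcript of Farsb thus had a mean exon value at percentile 96.9 of all leading transcripts and that of Farsa at percentile 14.6. The subunits form an enzyme in equal numbers. The leading Farsb transcript is a model of 619 bases. Its longest, of 2036 bases, had 217 in labeled and 408 in unlabeled RNA, against 11.2 and 17.7 for the longest of Farsa.

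Nars, for asparagine, had 447 in labeled and 969 in unlabeled RNA and a centered log2 ratio of −0.72. Aars, for alanine, was at −0.77 with 106 and 238. Wars, the tryptophan enzyme, was at −0.68, Gars, for glycine, at −0.58, Yars, for tyrosine, at −0.54 and Tars, for threonine, at −0.39, which turned positive under 1 alternative. The genes above the median gene were few and near it. Cars, for cysteine, had 174 in labeled and 163 in unlabeled RNA and was highest at 0.49. Hars, the histidine enzyme, had 79.2 and 78.0 and lay at 0.42. Sars, for serine, was at 0.06 and turned negative under 1 alternative and without centering. The 12 synthetases described as ATF4 targets had a median of −0.56 and the other 8 had −0.46, so the split by that description separated the family little.

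The synthetases were abundant RNAs, and level went along with both measures. For comparisons between genes the leading transcript was used, the coding transcript with the highest mean exon value. It had to have an intron value, all values above 0 and a mean exon value of at least 10. The median mean exon value of leading transcripts was 285 for the synthetases and 52.6 for all 8815 genes with one. Among all genes with a leading value of 300 or more the median centered log2 ratio was −0.24, between 30 and 300 it was −0.18, and below 30 it was 0.20. Of the 9 synthetases in the highest class 8 were below the median of their class, and of the 10 in the middle class 7 were. The 65 tested genes with an Eif or Eef symbol, which are translation factors together with kinases, methyltransferases and binding proteins that act on them, had a similar median leading value of 283 and a median centered log2 ratio of −0.16.

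Intron signal comes from RNA that still holds intron sequence, be it not yet spliced or a transcript that retains an intron. These were not told apart. The intron to exon ratio was computed for the leading transcript in each library. The median ratio of the synthetases was 0.203 in labeled and 0.0245 in unlabeled RNA, against 0.366 and 0.0625 over all genes. With the filter at 100 the unlabeled median of the synthetases was 0.0117. In labeled RNA 17 of 20 were below the median gene, but this ratio was lower in the higher level classes of all genes: set against genes of their own level class, 10 were below, with 4 of 9 in the highest class and 6 of 10 in the middle class. Nars showed the common pattern clearly, with an intron value of 46.8 beside an exon value of 447 in labeled RNA and 4.60 beside 969 in unlabeled RNA. Its ratio thus fell from 0.105 to 0.00475 between the pools. Mars departed from it. Its leading transcript, a model of 621 bases at the 3′ end of the gene, had nearly equal ratios of 0.00937 and 0.00811, whereas its longest transcript had 0.136 in labeled and 0.0616 in unlabeled RNA.

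Farsa and Vars were the synthetases whose labeled ratio reached 1 or more, as it did in 10.1% of all leading transcripts. Among those with a value below 30, the class of Farsa, 614 of 2782 reached it. Among those from 30 to under 300, the class of Vars, 275 of 5181 did. Farsa had an intron value of 26.6 against an exon value of 14.1 in labeled RNA, a ratio of 1.88, and 3.85 against 20.5 in unlabeled RNA, a ratio of 0.188. For Vars the labeled ratio was 1.36 in its leading transcript and 0.475 in its longest. Farsa kept a ratio above 1 in its longest transcript, at 2.23.

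**Figure D2:**
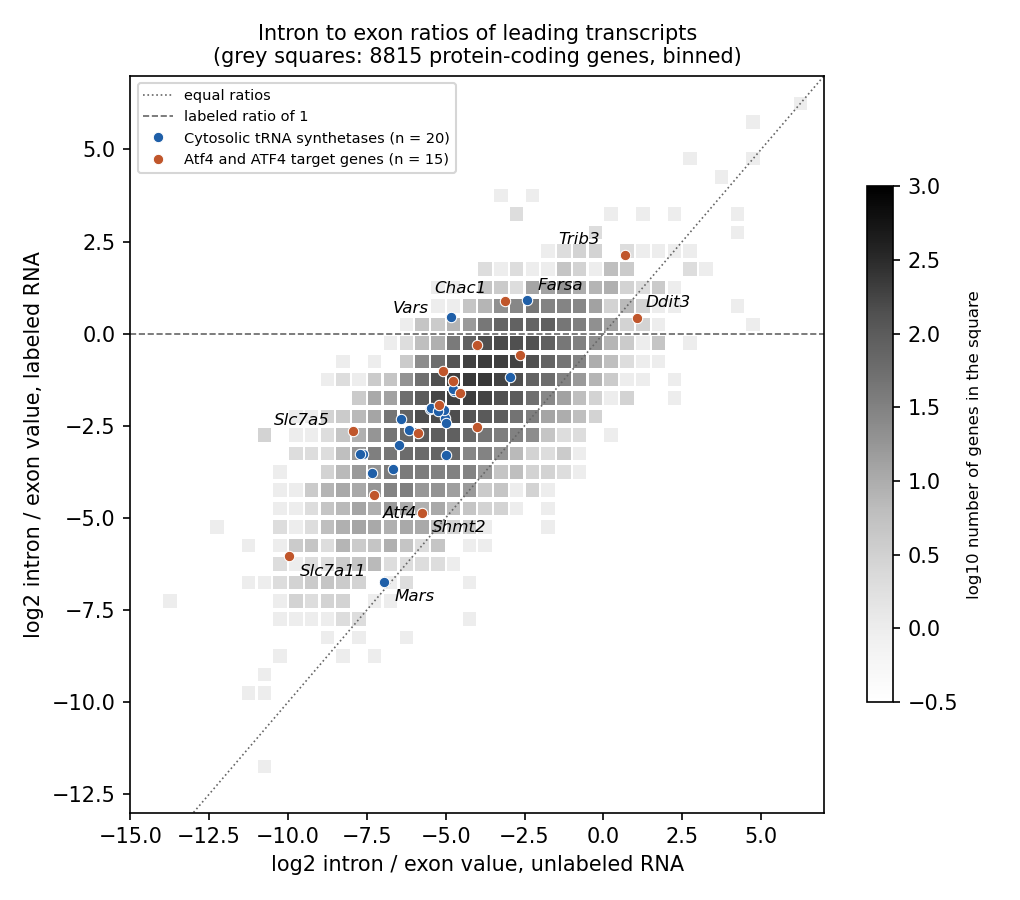
Log2 of the intron to exon ratio in labeled RNA (vertical axis) against unlabeled RNA (horizontal axis) for the leading transcripts of 20 synthetases and 15 ATF4 genes, over the 8815 protein-coding genes with one in grey. Most members lie above the dotted line of equal ratios and below the dashed line at a labeled ratio of 1; Ddit3 lies below the dotted line, and Trib3, Chac1, Farsa and Vars lie above the dashed line with it.

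Among the ATF4 genes the spread was wider. Of 17 genes 16 passed the filter on low values, with a median centered log2 ratio of 0.27 and a range from −1.78 to 3.13. They split into 9 above and 7 below the median gene, and the sign of the median was not stable, since it was −0.005 with leading transcripts alone and −0.13 without centering. Ddit3, Trib3, Vldlr and Psph were 2-fold above the median gene, and Slc7a5 was 2-fold below it. These counts stand beside the 18% and 11.3% of all genes given above. Asns, Atf4, Phgdh, Shmt2 and Slc7a11 changed sign under 1 or 2 alternatives, and Asns and Slc3a2 did so without centering.

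Of the 4 regulators of transcription, Ddit3 and Trib3 held the highest values of all members, but Atf4 and Cebpb did not. Ddit3 encodes CHOP, a factor of prolonged stress. It had an exon value of 54.5 in labeled and 8.22 in unlabeled RNA, the highest centered log2 ratio of all members at 3.13, which is 8.75 times the median gene and percentile 99.1 of all genes tested. Both of its coding transcripts were high in labeled RNA, at 29.98 and 5.36 for the longer and 24.5 and 2.86 for the shorter. Its 3′ end lies against that of Mars on chromosome 10, where the exons of the genes share 68 bases on opposite strands. The shorter Ddit3 transcript, which ends before the shared bases, had the higher ratio, 8.57 against 5.59. Trib3, a pseudokinase that is induced by ATF4 and CHOP and restrains them, had 21.5 in labeled and 7.19 in unlabeled RNA and a centered log2 ratio of 1.98. Ddit3 and Trib3 were 2-fold above the median gene under all 6 alternatives that keep the centering and could be computed for each. With transcripts of all biotypes Ddit3 was lower, at 2.05, and Trib3 was the higher of the pair, at 2.54.

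Atf4 itself was near the median gene. It had an exon value of 337 in labeled and 491 in unlabeled RNA, a centered log2 ratio of −0.14 that turned positive under 2 alternatives. Its leading transcript, at percentile 93.2 by level, was far more abundant per length than those of Ddit3 and Trib3, at percentiles 15.2 and 9.68. Little intron signal was seen for Atf4, with 16.1 in labeled and 3.19 in unlabeled RNA and ratios of 0.0477 and 0.0065. Cebpb, a partner of ATF4 on DNA whose gene has a single exon and therefore no intron value, was at 1.54 and 2.65, under the filter. Its only transcript shares 312 exon bases with an opposite-strand gene, so even this low value is uncertain.

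Intron values exceeded exon values in labeled RNA for Ddit3, Trib3 and Chac1, 3 of the 15 ATF4 genes with a leading transcript. The labeled ratio was 1 or more in 10.1% of all leading transcripts. It was so in 614 of 2782 with a value below 30, the class of Ddit3 and Trib3. From 30 to under 300, the class of Chac1, it was so in 275 of 5181. The longest Aldh18a1 transcript also had a labeled ratio above 1, at 1.09, whereas its leading model of 463 bases had 0.492. Trib3 had an intron value of 94.9 in labeled and 11.7 in unlabeled RNA, so that its ratio was 4.42 in the labeled pool and 1.62 in the unlabeled pool. Ddit3 had 40.5 and 11.3. Its ratio was higher in unlabeled RNA, at 2.10, than in labeled RNA, at 1.35, the only member with that order. Chac1, an enzyme that breaks down glutathione, had 121 in labeled and 6.82 in unlabeled RNA for introns and 65.9 and 59.7 for exons, and a centered log2 ratio of 0.54. Its labeled ratio was 1.84 and its unlabeled ratio 0.114.

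Genes of serine and folate metabolism lay on both sides of the median gene. The serine route starts with Phgdh, which had 97.1 in labeled and 78.5 in unlabeled RNA and a centered log2 ratio of 0.71. Near-identical stretches of Phgdh were found in 6 processed pseudogenes, up to 1605 bases long and with 95.3 to 98.7% identity, so its values are uncertain. Psat1, the next enzyme, had 1606 in labeled and 3530 in unlabeled RNA, the highest unlabeled exon value among members, and lay at −0.74. Psph, which completes serine, had 317 in labeled and 190.3 in unlabeled RNA and was 2-fold above the median gene at 1.14. The head of the Psph gene shares 452 exon bases with its opposite-strand neighbor Cct6a, a chaperonin subunit gene with 7149 and 22799 over all its transcripts. The leading Psph transcript, a partial model of 785 bases, does not reach the shared bases, and with leading transcripts alone Psph was at 1.21. It was at 0.99, just inside 2-fold, under the lower filter of 1, and at 0.74 without centering. Consecutive enzymes of a single route thus had centered log2 ratios of opposite sign.

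Shmt2, which passes serine carbon to folate in mitochondria, was near the median gene at −0.15, with 97.3 in labeled and 142 in unlabeled RNA. Mthfd2, the following mitochondrial folate enzyme, had 136 in labeled and 104 in unlabeled RNA and lay at 0.79. Its transcripts differed most among members. The main transcript of 2085 bases had 83.3 and 98.5, and a model of 443 bases that begins upstream had 53.2 and 5.55, so that centered log2 ratios of 0.16 and 3.66 came from the same gene. With transcripts of all biotypes Mthfd2 was at 0.04. Asns, the asparagine synthetase, had 1607 in labeled and 1652 in unlabeled RNA and lay at 0.36. Its transcripts ran from −0.10 to 1.21, the sign turning with the choice of transcript. Aldh18a1, which begins proline synthesis, had 263 in labeled and 690.3 in unlabeled RNA, at −0.99 just short of 2-fold, which it passed under 5 of 8 alternatives.

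**Figure D3:**
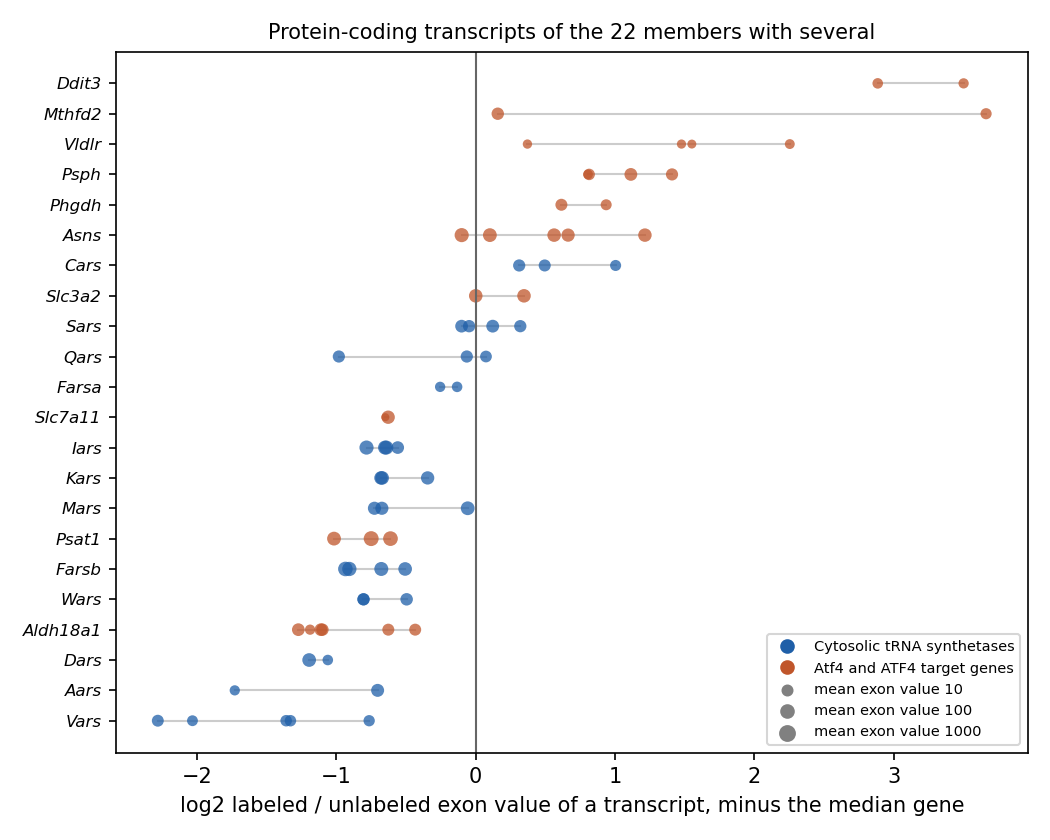
Centered log2 ratio of labeled to unlabeled exon value (horizontal axis) of each protein-coding transcript, for the 22 members with several transcripts above 0 in both libraries. Point size grows with the mean exon value, lines join transcripts of a gene, and the widest line, that of Mthfd2, spans 3.50.

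Across the 22 members with several measured coding transcripts, the median distance between the highest and the lowest transcript of a gene was 0.52 on the log2 scale, near the 0.56 found over 6715 genes. How reads shared by transcripts were divided among them was settled by the authors' quantification, and the spread between short and long models of a gene bears on the sums used above. Short partial models led in Vars, Mars, Farsb, Psph and Aldh18a1. The leading transcript was also the longest in 23 of 35 members. Besides coding transcripts, 26 members had retained-intron transcripts, 77 in all. These exceeded the coding sum in both libraries for Aars, Cars, Ddit3, Eprs, Farsa, Mthfd2, Qars, Slc7a5, Trib3, Vars and Yars. That of Ddit3 had 77.6 in labeled and 30.95 in unlabeled RNA and that of Trib3 had 56.4 and 9.17. Exon bases shared with a gene on the opposite strand were found for 9 members, namely Cars, Cebpb, Ddit3, Farsb, Hars, Mars, Psph, Shmt2 and Yars. The sources used here do not say whether reads were assigned by strand, so the values of these genes are uncertain to that extent; Hars shares the most bases in its leading transcript among the synthetases, 195, with its mitochondrial counterpart Hars2.

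Of the 3 amino acid carrier genes, Slc7a5 and Slc7a11 were below the median gene and Slc3a2 was above it. Slc7a5, the large neutral amino acid exchanger known as LAT1, had an exon value of 87.6 in labeled and 398 in unlabeled RNA and a centered log2 ratio of −1.78, percentile 1.23 of all genes tested. It was 2-fold below the median gene under all 8 alternatives that keep the centering, and at −2.98 with leakage subtracted. Its intron to exon ratio was 0.160 in labeled and 0.00407 in unlabeled RNA. The difference was 39.4-fold, the largest among members and close to the 38.3-fold of Vars, but it rests on an unlabeled intron value of only 1.62. Slc3a2, the shared heavy chain that brings such carriers to the membrane, had 513 in labeled and 599.8 in unlabeled RNA and lay at 0.18, so the subunits of that exchanger stood apart. A stretch of up to 182 bases of Slc3a2 recurs in 131 other genes, which leaves its values uncertain to that extent. Slc7a11, which takes up cystine with the same heavy chain, had 154 and 314, at −0.63. Its leading transcript of 9223 bases holds a stretch of about 373 bases close to tubulin genes. The 7 genes and pseudogenes that hold it summed to 11349 in labeled and 19567 in unlabeled RNA, so the values of Slc7a11 are uncertain. A processed transcript of Slc7a11, outside the coding sum, had 470 and 816. The intron value of the leading transcript was only 2.34 in labeled and 0.31 in unlabeled RNA.

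Sesn2, a stress-induced sensor of leucine that restrains mTORC1, had 30.5 in labeled and 77.0 in unlabeled RNA and a centered log2 ratio of −0.94, which passed 2-fold under 4 of 7 alternatives and was −2.51 with introns subtracted. Vldlr, a lipoprotein receptor, was 2-fold above the median gene at 1.40, but from low values, 36.2 in labeled and 18.2 in unlabeled RNA summed over 5 transcripts, none of which reached the filter with intron values. Its longest transcript had nearly equal values of 6.25 and 6.38.

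Related genes outside the set were described in the same way, without alternative settings. The 3 scaffold proteins of the multisynthetase complex were above the median gene, Aimp1 at 1.22, Aimp2 at 1.40 and Eef1e1 at 0.51, and their difference from its enzymes was not tested. Of 17 mitochondrial synthetases 14 passed the filter, with a median centered log2 ratio of 0.73, 11 above and 3 below the median gene. Of the 14, 5 were 2-fold above it and 1 was 2-fold below it, against 18% and 11.3% of all genes tested, and over all genes with a leading value below 30 the median was likewise above 0, at 0.20. Cars2 was the highest at 2.72, with 37.2 in labeled and 7.45 in unlabeled RNA, followed by Ears2 at 1.41 and Mars2 at 1.20. Yars2 and Iars2 were just below the median gene at −0.04 and −0.18. Lars2 stood far from the rest at −3.18, with 732 in labeled and 8746 in unlabeled RNA. Near-identical stretches in other genes were sought for members only, not for Lars2, so its values are uncertain to that extent. The mitochondrial enzymes were also much less abundant, with a median leading value of 30.3 per length against 285 for the cytosolic enzymes, and the difference between the lists was not tested.

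Of 27 other genes of the integrated stress response, from its kinases to further targets, 23 passed and centered near the median gene at 0.03, with 2 of them 2-fold above and 2 below, against 18% and 11.3% of all genes tested. Nupr1, a stress-induced chromatin protein, was highest at 1.70, then Pck2 at 1.15 and Herpud1 at 0.99. The lowest were Slc38a2, a carrier of small neutral amino acids, at −1.37, Slc6a9 at −1.20 and Ppp1r15b at −0.64. Among the 65 genes with an Eif or Eef symbol 10 were 2-fold above and 10 were below, beside 18% and 11.3% of all genes tested, and those above included methyltransferases of elongation factors and inhibitory binding proteins of eIF4E besides translation factors. They had Eif4ebp1, Eef1d and Eif3k as the highest at 1.82, 1.76 and 1.67 and Eif4ebp2, Eif2s3x and Eif5a2 as the lowest at −1.61, −1.45 and −1.45.

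If RNA made in the pulse and RNA made before it follow constant rates, the rates of splicing and decay can be sought from the intron to exon ratios in both pools. The equations require an unlabeled ratio below the labeled ratio and a labeled ratio below 1, called compatible, which held for 85.8% of all leading transcripts. They may still have no exact solution, as in 4978 of these 7563 genes, or a pair. It held for 18 of 20 synthetases and 12 of 15 ATF4 genes, and Ddit3, Trib3, Chac1, Farsa and Vars were the exceptions. None of the 18 synthetases had ratios that the equations could meet exactly, so their rates are nearest approximations. The median half-life of the synthetases was 22.2 min and that of the ATF4 genes 26.0 min, against 19.9 min over all compatible genes. With another approximation the medians were 4.22 min for the synthetases and 6.41 min for the ATF4 genes. With the second library read as total RNA they were 64.4 and 61.6 min. Half-lives of single synthetases are therefore not listed. Exact solutions existed for 4 ATF4 genes. Sesn2 had a single solution of 148 min, but 232 min with the second library read as total RNA. With leakage subtracted its labeled ratio was above 1, so that it was no longer compatible. Phgdh also had a single solution, of 15.8 min, but 39.8 min with the second library read as total RNA. Aldh18a1 and Mthfd2 had a pair of solutions each, and their half-lives are not listed.

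Promoter windows were searched for a DNA element that ATF4 is known to bind. ATF4 pairs with C/EBP proteins on a composite element, and its core was searched as TGATGNAA on both strands in RefSeq promoter windows on GRCm38.p6, from 250 bases before to 50 bases after each transcription start. Windows were matched for 29 members, that is 13 synthetases and 16 ATF4 genes; Cars, Hars, Lars, Nars, Rars, Vars, Wars and Slc7a5 had none. The core was found in 5 of 13 synthetases and 5 of 16 ATF4 genes, against 4.13% of 17491 protein-coding genes with a window. All 5 synthetases with it were among the 8 matched synthetases described as ATF4 targets. Members with the core did not share a direction: the 5 synthetases had a median centered log2 ratio of −0.58 and the other 8 had −0.48, and the 5 ATF4 genes had 0.54 and the other matched ones 0.02. A match describes the letters in a window and is neither a shown binding site nor a cause.

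The matching windows show the core in its surroundings for the 8 such members with the highest centered log2 ratios, with the core in capitals and each sequence on the strand of its gene. Positions are counted from the RefSeq start, which can differ from the start of the transcripts measured here. In Trib3 the core starts at position 15 (chr2:152344031-152344082), in Yars at position 4 (chr4:129189870-129189932). It lies 200 bases before the start in Vldlr (chr19:27216784-27216863) and 193 in Chac1 (chr2:119351013-119351092). It begins 23 bases before the start in Asns (chr6:7693189-7693268), 15 in Tars (chr15:11399630-11399709) and 30 in Gars (chr6:55037935-55038014). Slc7a11 holds it on both strands, 66 and 47 bases before the start (chr3:50443617-50443715).
Trib3: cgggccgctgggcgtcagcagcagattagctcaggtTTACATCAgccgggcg
Vldlr: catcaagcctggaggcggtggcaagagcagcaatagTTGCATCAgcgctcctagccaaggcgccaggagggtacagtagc
Chac1: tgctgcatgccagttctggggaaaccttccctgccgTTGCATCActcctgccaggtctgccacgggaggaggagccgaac
Asns: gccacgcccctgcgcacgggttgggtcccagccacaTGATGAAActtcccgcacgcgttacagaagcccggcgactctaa
Tars: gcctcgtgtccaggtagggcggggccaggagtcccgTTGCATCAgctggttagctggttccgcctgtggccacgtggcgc
Yars: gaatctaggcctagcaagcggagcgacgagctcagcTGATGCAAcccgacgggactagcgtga
Gars: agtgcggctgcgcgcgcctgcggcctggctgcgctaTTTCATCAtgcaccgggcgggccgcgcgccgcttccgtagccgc
Slc7a11: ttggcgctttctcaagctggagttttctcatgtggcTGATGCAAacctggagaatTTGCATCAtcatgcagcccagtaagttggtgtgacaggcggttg
Iars and Aars, next in order, held the core as well. The form with C at the open base, TGATGCAA, occurred in 7 of the 10 members with a core, Asns and Gars had TGATGAAA, which Aars held at a further site, and Trib3 had TGATGTAA.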

How the data were processed

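Each RNA pool, labeled or unlabeled, was measured in 1 library. After removal of ribosomal reads, the authors aligned reads to exons and introns and deposited, for 121429 transcripts, a relative abundance signal per length that is called TPM and sums to 10 times a TPM column. The submitters' processing notes name STAR 2.5.0, RSEM and GRCm38. Read depth and the strandedness of the libraries are not given in the sources used here, so genes with shared bases on opposite strands cannot be told apart with certainty.

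From the deposited values, gene sums, centered log2 ratios, intron to exon ratios and half-lives were computed as described, the last with the equations published with the data, a labeling time of 10 min and 4000 grid points, tested on simulated rates. Of the table's transcripts, 110366 were matched to GENCODE M21. Leakage was taken as 0.142 times the unlabeled value, the lowest percentile of the labeled to unlabeled ratio over 31386 transcripts. Near-identical stretches (at least 95% identity over 100 bases) were sought with BLAST+ 2.17.0 among all transcripts of the table for the 86 member transcripts. Calculations were done in Python 3.11.15 (with pandas 2.3.3 and numpy 2.4.6; roots with scipy 1.17.1) and plots in matplotlib 3.10.9.

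Members and lists (multisynthetase complex and scaffold, mitochondrial synthetases, described ATF4 targets, other stress response genes, genes with an Eif or Eef symbol, cell type markers) were chosen with earlier results of these data known. Every member could be named; of each comparison list, the 3 highest and 3 lowest centered log2 ratios among genes passing the filter, and every gene of lists of 8 or fewer. Promoter windows were printed for at most 8 members with the core, from the highest ratio. Pseudogenes and opposite-strand neighbors were named after their values were seen. Alternatives were leading transcripts, all biotypes, filters at 1 and 100, a pseudocount of 1, leakage subtraction and no centering. Others were intron subtraction, made in leading transcripts only, sums of intron and exon values, and other choices in the rate equations. The longest coding transcript was added after seeing the data.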

Additional observations from a re-analysis of the deposited data

How the results depend on the processing

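With 1 library per group, a value was taken as kept when it moved by at most 1.5 times. Of 94 recomputed values 75 were kept and 19 moved; the cause was not tested. The median gene itself ranged from −0.26 to −1.11 in log2 ratio between settings, so only differences from it are given. The median centered log2 ratio of the synthetases stayed negative under all alternatives, from −0.96 without centering to −0.12 with introns subtracted in leading transcripts. That of the ATF4 genes stayed within 0.58 of its value but was negative with leading transcripts alone, at −0.005, and without centering, at −0.13.

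Synthetases 2-fold below the median gene numbered 1 with the filter at 100 and with the longest coding transcript (chosen after seeing the data), 5 with leakage subtracted and 0 with introns subtracted. ATF4 genes 2-fold below numbered 2 with leading transcripts and 3 each with all biotypes, the filter at 1, leakage subtracted and introns subtracted. Those 2-fold above numbered 2 with the filter at 100 and 1 with introns subtracted, which tests fewer genes. Over all genes tested, the share 2-fold below was 10.7% with leading transcripts, 12% with all biotypes, 14.7% with the filter at 1, 7.61% with the filter at 100, 18.5% with leakage subtracted, 19.4% with introns subtracted and 9.48% with the longest coding transcript, so it moved as well. The share 2-fold above was 16.2% with the filter at 100 and 21.7% with introns subtracted.

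With the filter at 100, the median unlabeled intron to exon ratio was 0.0117 for the synthetases and 0.0184 for the ATF4 genes, whose median labeled ratio was 0.160. With sums over transcripts the unlabeled ratio of the ATF4 genes was 0.0682. Median half-lives were 4.22 min (synthetases) and 6.41 min (ATF4 genes) when both variables were minimized in transcripts without a solution, and 64.4 and 61.6 min when the second library was read as total RNA.

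No paired analysis was possible because each group has 1 library, both of replicate 1. Depth is unknown, so low values such as those of Ddit3, Trib3 and Vldlr carry an error that cannot be given.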
